A study of Homo sapiens with 27 samples.

Results

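The chaperones of the endoplasmic reticulum (ER) and the genes of the unfolded protein response were followed in 4 pools of T47D, a cell line established from a luminal breast cancer. The set was given by gene name and did not use any measured value: 39 genes of the 26485 in the count table, of which 38 passed the filter on low counts among 14789 genes tested. RNA was sequenced from cells infected with a lentivirus that carried the empty vector (control) or a Ty1-tagged GATA3 with the Splice del, C321fs or A333fs mutation, with 3 libraries for each of the 4 lines. GATA3 is the zinc finger factor that directs luminal differentiation of the mammary gland, and the second zinc finger is lost in whole or in part in each truncated mutant. All lines, control included, went through infection and puromycin selection and still make the wild-type GATA3 of the T47D cells. Each line is a single pool of stably infected cells, so that a difference a pool had for another reason cannot be told apart from an effect of its mutant. The paper's western blot showed slightly less A333fs protein than Splice del or C321fs protein. In comparisons of A333fs with these lines, mutation and amount of protein cannot be told apart. The study's text calls the RNA-seq libraries of a line biological replicates without saying how they were made. The labels do not say whether the 3 libraries came from separate cultures, and if they did not, the p-values measure only the spread between these libraries, which may be technical.

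Secreted and membrane proteins enter the ER through the Sec61 channel, are trimmed, glycosylated, oxidised and folded by resident chaperones, and leave in vesicles of the COPII coat. When unfolded proteins build up, 3 membrane sensors respond: EIF2AK3 (also called PERK) slows translation and favours ATF4, ERN1 (also called IRE1) splices the XBP1 message, and ATF6 is cut to release a transcription factor. ATF6 and spliced XBP1 act on the ER stress response element and related sequences in the promoters of HSPA5, HSP90B1 and other chaperone genes, and the response also feeds the machinery of ER-associated degradation. Luminal breast cells are secretory cells with a large ER, and XBP1 is among the genes that mark them.

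Promoters are shown because these genes are known for shared elements that the response acts on. Promoters of 34 of the 39 genes were matched in RefSeq (GRCh38.p14) as 300 bases, 250 before and 50 after the start. DERL1, DERL3, KDELR2, PDIA3 and SEC24D were not matched. Both strands were searched for the ER stress response element ERSE (CCAAT and CCACG with any 9 bases between them), its short form ERSE-II (ATTGG and CCACG with any 1 base between them) and the core of the unfolded protein response element UPRE (TGACGTGG). ERSE and ERSE-II end in the same CCACG, and the UPRE core holds CCACG on its other strand, so that single bases can count for more than 1 motif. The 5 promoters below carry them in capitals and are printed 5′ to 3′ for the 250 bases before the start. HSPA5 and HSP90B1 hold the full element, SDF2L1 and HERPUD1 the short form, and KDELR3, whose RNA differed most from control, the UPRE core. HSPA5 lies on the minus strand and the others on the plus strand, at chr9:125241344-125241593, chr12:103930160-103930409, chr22:21642052-21642301, chr16:56931892-56932141 and chr22:38467846-38468095 in this order.
HSPA5: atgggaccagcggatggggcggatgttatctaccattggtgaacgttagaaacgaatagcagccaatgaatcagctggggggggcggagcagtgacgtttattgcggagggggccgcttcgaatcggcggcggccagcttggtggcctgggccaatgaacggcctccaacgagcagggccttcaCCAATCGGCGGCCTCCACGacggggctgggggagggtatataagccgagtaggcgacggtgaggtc
HSP90B1: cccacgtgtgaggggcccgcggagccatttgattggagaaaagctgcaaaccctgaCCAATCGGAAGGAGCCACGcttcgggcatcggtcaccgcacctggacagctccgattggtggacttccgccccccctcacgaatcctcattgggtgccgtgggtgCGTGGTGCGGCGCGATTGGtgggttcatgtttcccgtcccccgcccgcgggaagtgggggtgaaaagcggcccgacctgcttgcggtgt
SDF2L1: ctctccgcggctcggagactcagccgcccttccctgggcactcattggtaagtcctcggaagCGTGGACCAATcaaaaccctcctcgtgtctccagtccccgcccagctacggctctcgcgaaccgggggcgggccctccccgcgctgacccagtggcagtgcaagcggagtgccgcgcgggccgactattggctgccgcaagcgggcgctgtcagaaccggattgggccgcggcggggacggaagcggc
HERPUD1: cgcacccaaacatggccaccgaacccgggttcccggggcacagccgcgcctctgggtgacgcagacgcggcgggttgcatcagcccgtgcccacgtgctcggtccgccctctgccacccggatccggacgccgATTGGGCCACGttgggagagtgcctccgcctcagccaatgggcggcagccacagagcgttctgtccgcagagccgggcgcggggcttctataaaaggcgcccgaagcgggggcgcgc
KDELR3: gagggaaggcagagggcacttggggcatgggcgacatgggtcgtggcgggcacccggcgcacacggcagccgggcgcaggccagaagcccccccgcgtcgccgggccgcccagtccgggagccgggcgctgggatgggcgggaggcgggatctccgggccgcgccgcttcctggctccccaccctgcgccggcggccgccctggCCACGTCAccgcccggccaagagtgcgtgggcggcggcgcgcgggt

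ERSE was found in 5 of the 34 promoters (14.7%), those of CANX, HSPA5, HSP90B1, CALR and CRELD2, against 0.132% of the promoters of 10620 tested genes. The 10620 include the tested genes of the set, so these 5 are among their 14 matches. The set was named for this response, so the shares of these elements are a description and not a test. HSP90B1 held 2 copies, at bases -194 to -176 and -89 to -71, and HSPA5 held 1 at -66 to -48, counted from the start. ERSE-II was found in HYOU1, HERPUD1 and SDF2L1 (8.82%, against 0.113% of tested genes), with 2 copies in HYOU1. The UPRE core was found in HYOU1 and KDELR3 (5.88%, against 0.895%). Of the GATA consensus, AGATAA was in 1 promoter, that of HSPA5 (2.94%, against 5.04%), and TGATAA in those of ATF6 and OSTC (5.88%, against 3.51%). The paper writes the consensus as WGATAR (W for A or T, R for A or G) and reports a partial motif, WGAT or AGAT, at the mutants' peaks. The forms that end in G and the partial motif were not searched. A match describes the letters only, and no binding data were used here.

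The libraries held 27872208 to 36788024 fragments counted on genes. Levels are given as CPM, the count of a gene relative to the library total after TMM scaling, whose factors were 0.884 to 0.943 in control and 1.01 to 1.05 in the mutant libraries. The 9 luminal markers fixed for the check, among them KRT8, KRT18, ESR1 and FOXA1, were all expressed, and their summed level was 18221 to 21444 CPM in control libraries and 12056 to 15002 in mutant libraries. That sum is carried by the keratins, which fell in every mutant line: log2 fold changes in Splice del, C321fs and A333fs were -1.02, -0.84 and -0.49 for KRT8, -0.82, -0.65 and -0.46 for KRT18, and -0.64, -0.57 and -0.61 for KRT19. Other luminal markers went both ways. EPCAM rose in each line (0.42, 0.37 and 0.37), ESR1 rose in Splice del (0.23) and CDH1 in A333fs (0.27), whereas FOXA1 fell in C321fs and A333fs (-0.30 and -0.38) and GATA3 in Splice del and A333fs (-0.36 and -0.33). The defining markers PTPRC of leukocytes, TEK of endothelium and FAP of fibroblasts had 0 counts in all 12 libraries, while the summed level of the fibroblast list, carried mostly by COL1A1, was 53.1 to 64.9 CPM in control and 29.6 to 33.4 in A333fs. GATA3 reads, which do not tell the mutant from the wild type, stood at 1247 to 1340 CPM in control and 962 to 1155 CPM in the mutant lines. The part of these differences in the results was not tested. In bulk RNA, less RNA per cell and fewer cells with that RNA cannot be told apart.

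Few of the genes passed both the adjusted p and the fold limit, and their direction was mixed. Genes were called at a fold change over 1.5 and a p below 0.01 from edgeR's quasi-likelihood test after Benjamini-Hochberg adjustment. In Splice del, 3 of 38 genes were called higher than control (6.21% of all genes were), namely KDELR3, EIF2AK3 and DNAJC3, and 0 were called lower (4.53% of all genes). In C321fs, 0 were called in either direction (4.63% of all genes were called higher and 2.26% lower). In A333fs, 0 were called higher (5.46% of all genes) and 1, SDF2L1, was called lower (6.81%). DESeq2 gave the same counts. At an unadjusted p under 0.05, Splice del had 22 genes above and 7 below control (29.5% and 29.4% of all genes), C321fs had 13 and 9 (28.4% and 29.4%), and A333fs had 20 and 9 (30.2% and 33.2%).

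Most differences were smaller than the fold limit. At an adjusted p below 0.01 with no fold limit, 16 genes rose and 2 fell in Splice del (18.7% and 22.4% of all genes), 9 rose and 4 fell in C321fs (16.1% and 20.7%), and 15 rose and 6 fell in A333fs (21.0% and 26.4%). The split depends on the scaling. With upper-quartile factors it was 23 to 0, 13 to 2 and 20 to 2, with library totals 28 to 0, 20 to 1 and 22 to 2, and with each library's trend over GC content and exon length removed 10 to 5, 3 to 7 and 3 to 5. The median log2 fold change of the 38 genes was 0.15, 0.05 and 0.15 (Splice del, C321fs, A333fs), beside 0.03, 0.02 and 0.01 over all genes tested. Upper-quartile factors moved the median of all genes up by 0.09, 0.09 and 0.11, and library totals moved it by 0.19, 0.17 and 0.15. Removing the GC and length trend moved it by -0.09, -0.07 and -0.06. The shares of all genes that rose and fell were not counted under these fits, so their splits are given for the 38 genes alone. The 3 libraries of a mutant line stood above all 3 control libraries for 25 genes and below them for 7 in Splice del (31.7% and 31.3% of all genes), for 10 and 6 in C321fs (27.3% and 26.7%), and for 19 and 10 in A333fs (31.2% and 34.3%). The 3 comparisons share the control libraries and are given side by side.

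**Figure D1:**
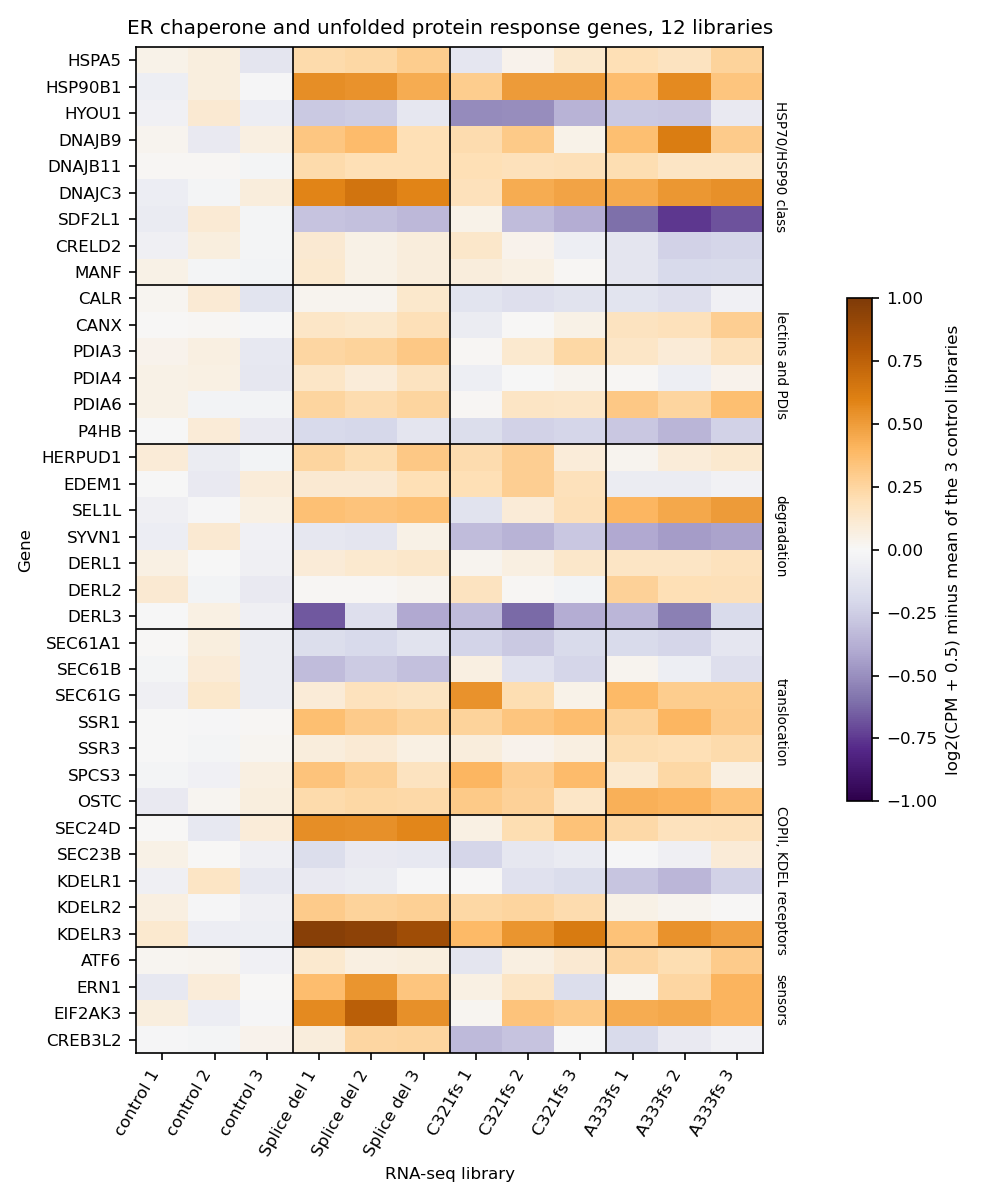
Level of the 38 tested genes (rows, grouped by role) in the 12 libraries (columns), as log2(CPM + 0.5) minus the mean of the 3 control libraries on a scale cut at -1 and 1. The KDELR3, DNAJC3 and HSP90B1 rows are orange in all 9 mutant libraries, and the SDF2L1 row is darkest in the A333fs libraries, where it fell by 0.69 on the log2 scale.

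Of the 9 chaperones and cofactors of the ER lumen, 4 rose and 1 fell in Splice del (18.7% and 22.4% of all genes). In C321fs 3 rose and 1 fell (16.1% and 20.7%), and in A333fs 4 rose and 2 fell (21.0% and 26.4%). HSP90B1 (GRP94, the HSP90 of the ER) stood at 669, 734 and 693 CPM (control), 1021, 1009 and 951 (Splice del), 857, 988 and 988 (C321fs) and 903, 1034 and 879 (A333fs). Every mutant library lay above every control library. HSP90B1 rose by 0.51 ± 0.07 (adjusted p = 2.70e-05) on the log2 scale in Splice del, 0.43 ± 0.07 (adjusted p = 0.000161) in C321fs and 0.43 ± 0.07 (adjusted p = 0.000107) in A333fs, where ± gives the standard error with 3 libraries against 3. With the GC and length trend removed these values were 0.25 (adjusted p = 0.000263), 0.19 (adjusted p = 0.00434) and 0.12 (adjusted p = 0.0482). DNAJC3 (p58IPK), a lumenal J protein that works with HSPA5, stood at 36.2, 37.4 and 40.2 CPM (control), 57.4, 60.2 and 57.2 (Splice del), 43.2, 51.6 and 52.8 (C321fs) and 52.1, 54.4 and 55.4 (A333fs). Its mutant libraries also cleared the control range, the lowest being C321fs 1. DNAJC3 rose 1.54-fold in Splice del (log2 fold change 0.62 ± 0.07, adjusted p = 5.14e-06), 1.30-fold in C321fs (log2 fold change 0.37 ± 0.07, adjusted p = 0.000608) and 1.42-fold in A333fs (log2 fold change 0.51 ± 0.07, adjusted p = 2.40e-05). Without control library 1 the value in Splice del was 0.58 and under the fold limit, as it was after removal of the GC and length trend, at 0.29 (adjusted p = 6.31e-05). With that trend removed, DNAJC3 was 0.08 (adjusted p = 0.182) in C321fs and 0.18 (adjusted p = 0.00611) in A333fs.

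HSPA5 (BiP), the HSP70 of the ER and the usual readout of the response, changed little. It stood at 736, 754 and 656 CPM (control), 831, 840.3 and 876 (Splice del), 660.2, 730.4 and 781 (C321fs) and 819, 801 and 857 (A333fs). The Splice del and A333fs libraries lay just above control, while 2 of 3 C321fs libraries lay within the control range and 1 lay above it. HSPA5 rose by 0.25 ± 0.07 (adjusted p = 0.00525) in Splice del, and its values were 0.02 ± 0.07 (adjusted p = 0.846) in C321fs and 0.21 ± 0.07 (adjusted p = 0.0136) in A333fs. In 5 of 12 fits that each left out 1 library, the rise in Splice del did not pass. With the GC and length trend removed the Splice del value was 0.08 (adjusted p = 0.239).

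DNAJB9 (ERdj4), a J protein induced through XBP1, stood at 11.1, 10.1 and 11.4 CPM (control), 13.7, 14.3 and 12.5 (Splice del), 12.7, 13.5 and 11.2 (C321fs) and 14.1, 16.9 and 13.5 (A333fs). C321fs overlapped control, the other two lines did not. DNAJB9 rose in A333fs (log2 fold change 0.45 ± 0.10, adjusted p = 0.00104), and its values were 0.32 ± 0.10 (adjusted p = 0.0135) in Splice del and 0.20 ± 0.10 (adjusted p = 0.108) in C321fs. With the GC and length trend removed the A333fs value was 0.12 (adjusted p = 0.223). DNAJB11 (ERdj3) rose in all 3 lines by 0.17 to 0.21. With the GC and length trend removed it passed in none. Its values were then 0.09 (adjusted p = 0.0490) in Splice del, 0.07 (adjusted p = 0.124) in C321fs and -0.02 (adjusted p = 0.637) in A333fs.

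SDF2L1, which keeps HSPA5 and its J proteins in cycle, went the other way. It stood at 80.8, 92.1 and 84.4 CPM (control), 69.7, 68.9 and 67.6 (Splice del), 88.2, 68.3 and 65.4 (C321fs) and 56.0, 50.6 and 53.2 (A333fs). All 3 A333fs libraries lay below every other library, the Splice del libraries lay below control, and C321fs 1 lay within the control range. SDF2L1 fell in A333fs to 0.621 of control (log2 fold change -0.69 ± 0.09, adjusted p = 1.23e-05) and in Splice del (log2 fold change -0.32 ± 0.09, adjusted p = 0.00701), where it did not pass in 5 of 12 fits without 1 library, and its value in C321fs was -0.21 ± 0.09 (adjusted p = 0.0576). A333fs also lay below Splice del (log2 fold change -0.37 ± 0.09, adjusted p = 0.00845) and below C321fs (log2 fold change -0.47 ± 0.09, adjusted p = 0.00109). Its exons hold 65.7% GC, the highest of the 38 genes. With the GC and length trend removed the A333fs value was -0.27 (adjusted p = 0.000103) and the Splice del value -0.04 (adjusted p = 0.486). The A333fs value was -0.57 with upper-quartile factors and -0.54 with library totals, under the fold limit in both.

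HYOU1 (GRP170), the nucleotide exchange factor for HSPA5, stood at 337, 376 and 332.7 CPM (control), 289, 292 and 323 (Splice del), 244, 245 and 271 (C321fs) and 289, 287 and 327 (A333fs). All mutant libraries lay below control, lowest in C321fs. HYOU1 fell in C321fs to 0.726 of control (log2 fold change -0.46 ± 0.07, adjusted p = 8.53e-05), and its values were -0.21 ± 0.07 (adjusted p = 0.0177) in Splice del and -0.21 ± 0.07 (adjusted p = 0.0157) in A333fs. MANF, a secreted ER stress protein, fell in A333fs (log2 fold change -0.17 ± 0.05, adjusted p = 0.00918), which did not pass in 10 of 12 fits without 1 library. CRELD2, another secreted target of the response, passed in no comparison with control, with values of 0.08, 0.04 and -0.19 in Splice del, C321fs and A333fs.

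**Figure D2:**
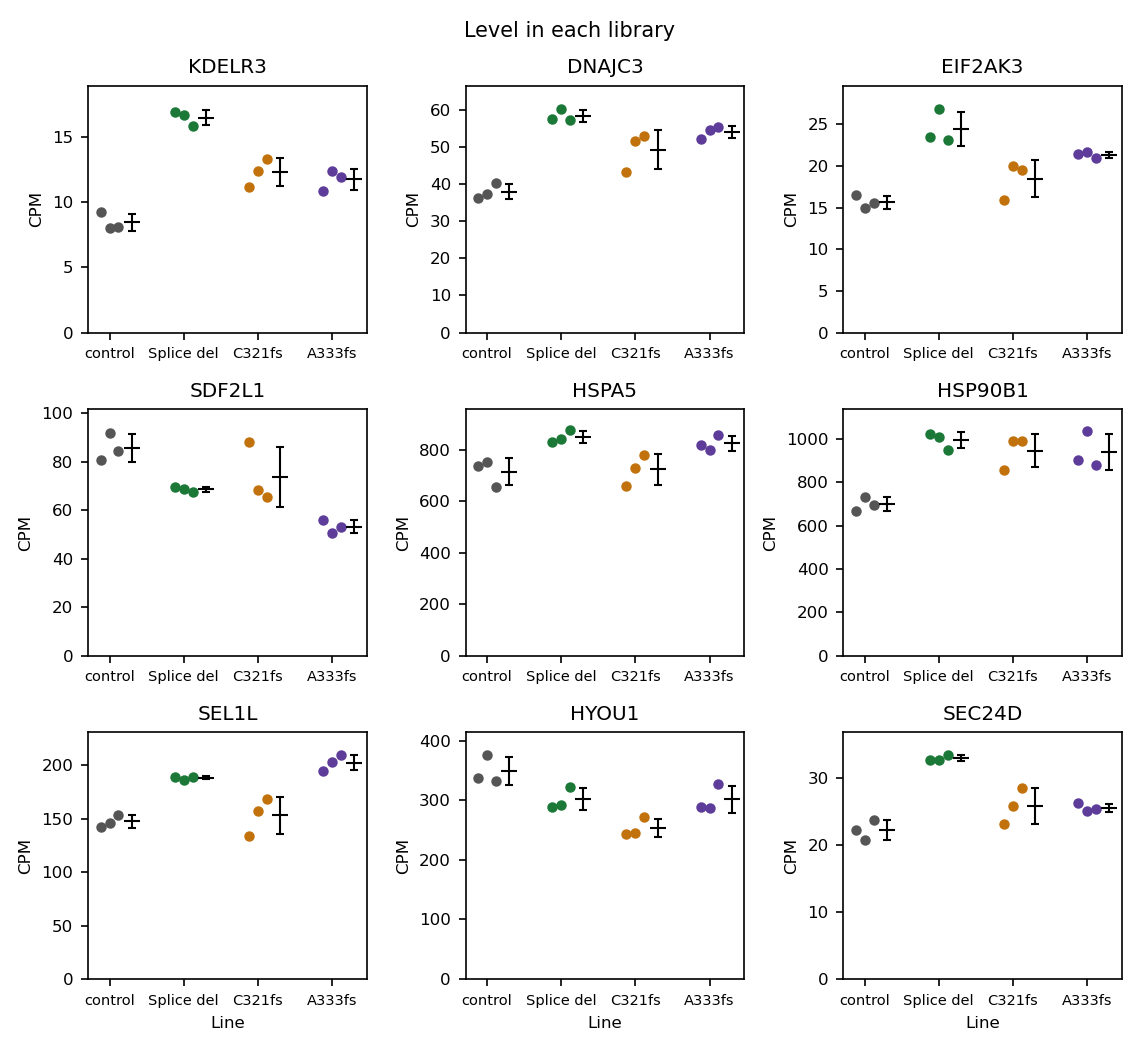
CPM of 9 genes in each library (points, 3 per line) with the mean and standard deviation of the line (black), on axes that start at 0. KDELR3 is highest in Splice del (15.8 to 16.9 CPM) and SDF2L1 lowest in A333fs (50.6 to 56.0 CPM), while HSPA5 overlaps between C321fs and control.

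Of the 6 lectin chaperones and protein disulfide isomerases, 2 rose and 0 fell in Splice del (18.7% and 22.4% of all genes). In C321fs 0 rose and 1 fell (16.1% and 20.7%), and in A333fs 2 rose and 1 fell (21.0% and 26.4%). P4HB, the disulfide isomerase that also serves collagen hydroxylation, stood at 1451, 1551 and 1363 CPM (control), 1269, 1256 and 1334 (Splice del), 1289.8, 1239 and 1249 (C321fs) and 1196, 1136 and 1237 (A333fs). Every mutant library lay below every control library. P4HB fell in C321fs (log2 fold change -0.21 ± 0.06, adjusted p = 0.00669) and A333fs (log2 fold change -0.29 ± 0.06, adjusted p = 0.000431), and its value in Splice del was -0.18 ± 0.06 (adjusted p = 0.0154). The fall in C321fs did not pass in 7 of 12 fits without 1 library, nor with the replicate number as a block (adjusted p = 0.0115). With the GC and length trend removed the values were -0.07 (adjusted p = 0.252) and -0.01 (adjusted p = 0.938), against exons of 58.4% GC. PDIA6, which acts on the disulfides of the sensors, rose in Splice del (log2 fold change 0.24 ± 0.05, adjusted p = 0.00134) and A333fs (log2 fold change 0.31 ± 0.05, adjusted p = 0.000134). With the GC and length trend removed these were 0.13 (adjusted p = 0.0109) and 0.19 (adjusted p = 0.000695). Of its exon bases 29.7% overlap ATP6V1C2 on the other strand. Strand was ignored and fragments with more than 1 gene were dropped, so fragments there could be lost from its count. PDIA3, the partner of the lectins, rose in Splice del (log2 fold change 0.27 ± 0.06, adjusted p = 0.00151). Its value there was 0.07 (adjusted p = 0.278) with the GC and length trend removed. Calnexin (CANX), the membrane lectin chaperone, rose in A333fs (log2 fold change 0.21 ± 0.05, adjusted p = 0.00194) but stood at -0.12 once the GC and length trend was removed. Calreticulin (CALR), the soluble one, and PDIA4 passed in no comparison, with values between -0.14 and 0.13.

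Of the 7 genes of ER-associated degradation, 2 rose and 0 fell in Splice del (18.7% and 22.4% of all genes). In C321fs 1 rose and 1 fell (16.1% and 20.7%), and in A333fs 2 rose and 1 fell (21.0% and 26.4%). SEL1L and SYVN1 encode the adaptor and the ubiquitin ligase (HRD1) of 1 complex, and in A333fs they moved apart. SEL1L stood at 142, 146 and 154 CPM (control), 189, 186 and 189 (Splice del), 134, 158 and 168 (C321fs) and 195, 203 and 209 (A333fs). Splice del and A333fs lay clear of control, and C321fs spanned it. SEL1L rose in A333fs (log2 fold change 0.46 ± 0.07, adjusted p = 3.93e-05) and Splice del (log2 fold change 0.35 ± 0.07, adjusted p = 0.000488) and was 0.05 ± 0.07 (adjusted p = 0.531) in C321fs. SYVN1 stood at 113.3, 128 and 115 CPM (control), 109.9, 109 and 123 (Splice del), 94.7, 91.8 and 97.7 (C321fs) and 89.4, 86.7 and 88.3 (A333fs). C321fs and A333fs lay below control, and Splice del overlapped it. SYVN1 fell in A333fs (log2 fold change -0.43 ± 0.06, adjusted p = 2.48e-05) and C321fs (log2 fold change -0.33 ± 0.06, adjusted p = 0.000488) and was -0.06 ± 0.06 (adjusted p = 0.408) in Splice del. SEL1L exons hold 38.7% GC and SYVN1 exons 58.6%. With the trend removed, the A333fs values were 0.18 (adjusted p = 0.0123) for SEL1L and -0.14 (adjusted p = 0.0181) for SYVN1. SEL1L in Splice del was then 0.04 (adjusted p = 0.603).

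HERPUD1, a membrane protein that organises the degradation complex and is a sensitive target of the response, stood at 33.8, 29.95 and 30.9 CPM (control), 37.6, 36.4 and 39.4 (Splice del), 36.6, 38.6 and 33.5 (C321fs) and 32.2, 33.5 and 34.3 (A333fs). The Splice del libraries lay above control and those of C321fs and A333fs overlapped it. HERPUD1 rose in Splice del (log2 fold change 0.26 ± 0.07, adjusted p = 0.00377), which did not pass in 4 of 12 fits without 1 library, and was 0.20 ± 0.07 (adjusted p = 0.0209) in C321fs and 0.08 ± 0.07 (adjusted p = 0.328) in A333fs. EDEM1, which delivers misfolded glycoproteins, rose in C321fs (log2 fold change 0.22 ± 0.06, adjusted p = 0.00528). Its value there was 0.11 (adjusted p = 0.112) with the GC and length trend removed. Of the derlins, membrane proteins of the same route, DERL2 rose in A333fs (log2 fold change 0.22 ± 0.07, adjusted p = 0.00899) but did not pass in 8 of 12 fits without 1 library and stood at -0.11 with the GC and length trend removed, and DERL1 passed in none. DERL3, the scarcest of the 38 genes with 1.16 to 2.24 CPM, had values of -0.52 ± 0.19, -0.56 ± 0.19 and -0.45 ± 0.19 and passed in none.

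Of the 7 genes of translocation, signal cleavage and glycosylation, 3 rose and 1 fell in Splice del (18.7% and 22.4% of all genes). In C321fs 3 rose and 1 fell (16.1% and 20.7%), and in A333fs 4 rose and 1 fell (21.0% and 26.4%). SSR1, a subunit of the translocon-associated complex, stood at 151, 151 and 154 CPM (control), 195, 187 and 182 (Splice del), 182, 192 and 196 (C321fs) and 183, 201 and 188 (A333fs). Every mutant library lay above control, and the lines overlapped each other. SSR1 rose by 0.31 ± 0.05 (adjusted p = 0.000142), 0.32 ± 0.05 (adjusted p = 0.000149) and 0.32 ± 0.05 (adjusted p = 7.56e-05) in Splice del, C321fs and A333fs. After removal of the GC and length trend its values were 0.04 (adjusted p = 0.514), 0.13 (adjusted p = 0.0256) and 0.04 (adjusted p = 0.458). OSTC, a subunit of the oligosaccharyltransferase, stood at 63.1, 67.9 and 70.4 CPM (control), 78.3, 79.0 and 78.5 (Splice del), 83.1, 80.9 and 74.3 (C321fs) and 90.0, 89.0 and 85.6 (A333fs). Its mutant libraries were likewise above control, highest in A333fs. OSTC rose by 0.23 ± 0.06 (adjusted p = 0.00352), 0.24 ± 0.06 (adjusted p = 0.00263) and 0.39 ± 0.06 (adjusted p = 3.17e-05) in the same order. Without that trend OSTC stood at 0.0032 (adjusted p = 0.959), -0.0026 (adjusted p = 0.970) and 0.06 (adjusted p = 0.322).

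SPCS3, of the signal peptidase, rose in Splice del (log2 fold change 0.27 ± 0.06, adjusted p = 0.00254) and C321fs (log2 fold change 0.36 ± 0.06, adjusted p = 0.000351), but with the GC and length trend removed these values were -0.11 and -0.03. SSR3 and SEC61G rose in A333fs by 0.21 and 0.32, and stood at -0.12 and -0.06 with the trend removed. SEC61G in A333fs did not pass in 8 of 12 fits without 1 library. SEC61G belongs to the Sec61 channel, whose other measured subunits fell in some lines. SEC61A1, the pore subunit, stood at 416, 438 and 395 CPM (control), 369.8, 363 and 378 (Splice del), 355, 346 and 364 (C321fs) and 365, 358 and 385 (A333fs). All mutant libraries lay below control. SEC61A1 fell in C321fs (log2 fold change -0.23 ± 0.05, adjusted p = 0.00183) and A333fs (log2 fold change -0.17 ± 0.05, adjusted p = 0.00901), was -0.17 ± 0.05 (adjusted p = 0.0114) in Splice del, and in A333fs did not pass in 8 of 12 fits without 1 library, nor with the replicate number as a block (adjusted p = 0.0148). SEC61B, another small subunit, stood at 54.6, 59.3 and 52.8 CPM (control), 44.1, 46.2 and 44.7 (Splice del), 58.3, 50.1 and 47.8 (C321fs) and 56.7, 53.3 and 49.6 (A333fs). Splice del was below control and the other lines overlapped it. SEC61B fell in Splice del (log2 fold change -0.30 ± 0.08, adjusted p = 0.00308) and was -0.09 ± 0.08 (adjusted p = 0.312) in C321fs and -0.06 ± 0.08 (adjusted p = 0.492) in A333fs.

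Of the 5 genes of the COPII coat and the KDEL receptors, 3 rose and 0 fell in Splice del (18.7% and 22.4% of all genes). In C321fs 2 rose and 0 fell (16.1% and 20.7%), and in A333fs 1 rose and 1 fell (21.0% and 26.4%). KDELR3, the least abundant of the 3 receptors that return escaped chaperones to the ER, had the largest fold change of the 38 genes. It stood at 9.23, 8.05 and 8.06 CPM (control), 16.9, 16.6 and 15.8 (Splice del), 11.2, 12.3 and 13.3 (C321fs) and 10.8, 12.4 and 11.9 (A333fs). All mutant libraries lay above control, and the Splice del libraries lay above all others. KDELR3 rose 1.95-fold in Splice del (log2 fold change 0.96 ± 0.09, adjusted p = 5.44e-07), 1.45-fold in C321fs (log2 fold change 0.54 ± 0.09, adjusted p = 0.000186) and 1.39-fold in A333fs (log2 fold change 0.48 ± 0.09, adjusted p = 0.000309). Splice del also differed from C321fs (log2 fold change 0.43 ± 0.08, adjusted p = 0.00294) and A333fs lay below Splice del (log2 fold change -0.49 ± 0.08, adjusted p = 0.000739). With the GC and length trend removed, KDELR3 was 0.78 (adjusted p = 1.77e-07), 0.36 (adjusted p = 0.00177) and 0.22 (adjusted p = 0.0409), and it was the 1 gene still called. Without control library 1 or without C321fs library 1, KDELR3 was called in C321fs too, at 0.61 and 0.60.

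The other 2 receptors differed from it and from each other. KDELR2 rose in Splice del (log2 fold change 0.28 ± 0.05, adjusted p = 0.000147) and C321fs (log2 fold change 0.23 ± 0.05, adjusted p = 0.000816) and was 0.03 ± 0.05 (adjusted p = 0.653) in A333fs. Once the GC and length trend was removed, KDELR2 stood at 0.06 (adjusted p = 0.253) and 0.04 (adjusted p = 0.521) in those lines and fell in A333fs, at -0.24 (adjusted p = 0.000249). KDELR1 fell in A333fs (log2 fold change -0.29 ± 0.07, adjusted p = 0.00161) and was -0.06 in Splice del and -0.11 in C321fs. SEC24D, which selects cargo for the COPII coat, stood at 22.3, 20.8 and 23.8 CPM (control), 32.8, 32.7 and 33.5 (Splice del), 23.2, 25.8 and 28.5 (C321fs) and 26.2, 25.1 and 25.4 (A333fs). The Splice del libraries lay well above all others. SEC24D rose 1.48-fold in Splice del (log2 fold change 0.57 ± 0.07, adjusted p = 1.49e-05), just under the fold limit, which it passed without control library 3 (0.61). Its values were 0.21 ± 0.08 (adjusted p = 0.0261) in C321fs and 0.20 ± 0.08 (adjusted p = 0.0303) in A333fs. SEC23B, another coat subunit, passed in none, with -0.12, -0.13 and 0.01.

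The sensors rose in Splice del and A333fs only in part. EIF2AK3 stood at 16.5, 14.9 and 15.6 CPM (control), 23.5, 26.8 and 23.1 (Splice del), 15.9, 20.0 and 19.5 (C321fs) and 21.5, 21.7 and 20.9 (A333fs). Splice del and A333fs lay above control, and 1 of 3 C321fs libraries lay within it. EIF2AK3 rose 1.56-fold in Splice del (log2 fold change 0.64 ± 0.09, adjusted p = 2.11e-05) and 1.36-fold in A333fs (log2 fold change 0.45 ± 0.09, adjusted p = 0.000443), and was 0.24 ± 0.09 (adjusted p = 0.0366) in C321fs. Without Splice del library 2 the value in Splice del was 0.57 and under the fold limit, as it was after removal of the GC and length trend, at 0.42 (adjusted p = 3.58e-05). With that trend removed, EIF2AK3 was 0.19 (adjusted p = 0.0287) in A333fs. Of its exon bases 16.8% overlap LOC101928371.

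ERN1 was scarce, at 4.44, 5.13 and 4.79 CPM (control), 6.32, 7.12 and 6.16 (Splice del), 4.99, 5.38 and 4.21 (C321fs) and 4.84, 5.77 and 6.52 (A333fs). The Splice del libraries lay above control and those of the other lines overlapped it. ERN1 rose in Splice del (log2 fold change 0.45 ± 0.12, adjusted p = 0.0061), which did not pass in 5 of 12 fits without 1 library, and was 0.02 ± 0.13 (adjusted p = 0.915) in C321fs and 0.26 ± 0.13 (adjusted p = 0.0913) in A333fs. ATF6 stood at 57.1, 57.3 and 54.7 CPM (control), 61.3, 59.0 and 59.5 (Splice del), 51.9, 58.9 and 60.9 (C321fs) and 67.0, 65.0 and 69.4 (A333fs). The A333fs libraries were the highest and C321fs spanned control. ATF6 rose in A333fs (log2 fold change 0.25 ± 0.06, adjusted p = 0.00229) but stood at -0.04 with the GC and length trend removed, and was 0.09 ± 0.06 (adjusted p = 0.24) in Splice del and 0.02 ± 0.06 (adjusted p = 0.793) in C321fs. In the fit without the trend, ATF6 fell in Splice del, at -0.19 (adjusted p = 0.00733), and was -0.19 (adjusted p = 0.0118) in C321fs. CREB3L2, a membrane-bound factor of secretory cells, passed in no comparison with control (0.20, -0.21 and -0.11), and its relative CREB3L1 had 0 to 9 counts per library and was not tested.

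**Figure D3:**
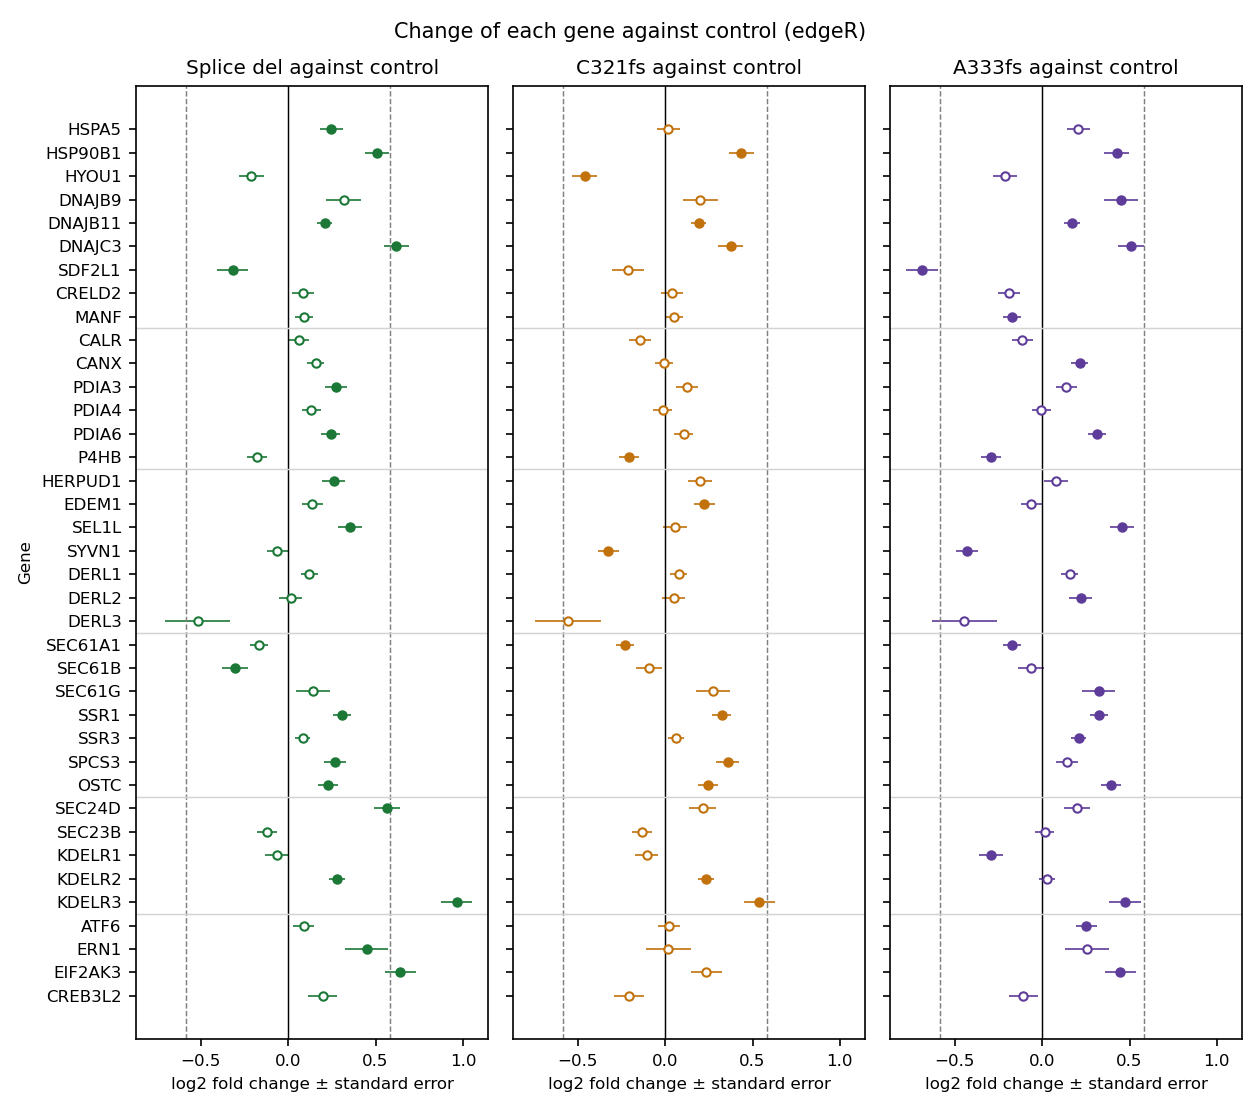
Log2 fold change against control (points) with the standard error (bars) for the 38 genes in the 3 mutant lines, filled where edgeR's adjusted p was below 0.01, with dashed lines at the 1.5-fold limit. KDELR3, EIF2AK3 and DNAJC3 pass the upper limit in Splice del and SDF2L1 the lower limit in A333fs. Removing the GC and length trend turned 9 of the filled values to the other side, all of them upward ones.

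In the direct comparisons of mutant lines, edgeR called 0 of 38 genes, and DESeq2 also gave 0. Of all genes, 1.76% were called higher and 0.879% lower in Splice del than in C321fs, 2.47% and 3.08% in A333fs than in C321fs, and 1.03% and 1.97% in A333fs than in Splice del. At an unadjusted p under 0.05, Splice del was above C321fs for 15 genes and below it for 1 (13.3% and 12.8% of all genes), A333fs was above C321fs for 12 and below it for 7 (17.6% and 21.7%), and A333fs was above Splice del for 6 and below it for 15 (15.96% and 20.01%). With no fold limit, Splice del was above C321fs at an adjusted p below 0.01 for 6 genes (4.18% of all genes) and below it for 0 (2.14%). They were SEC24D, KDELR3, EIF2AK3, SEL1L, SYVN1 and CREB3L2, the last with log2 fold change 0.40 ± 0.08, adjusted p = 0.00394. This count fell to 0 without Splice del library 2 or C321fs library 1 and to 1 without Splice del library 1, without C321fs library 2 or with the pair fitted alone, and ranged from 0 to 7 over the 12 fits without 1 library. A333fs was above C321fs for 3 genes (6.80%), namely SEL1L, CANX and PDIA6, and below it for 4 (8.89%), namely SDF2L1, MANF, EDEM1 and KDELR2. Without 1 library these counts were 1 to 5 each, the higher count being 1 without C321fs library 1 or 2 or A333fs library 3 and the lower count 1 without C321fs library 2 or A333fs library 2, and the pair fitted alone gave 1 each. Against Splice del it was below for 7 (7.29%), namely KDELR3, SEC24D, SDF2L1, SYVN1, CRELD2, MANF and KDELR2, and above for 0 (4.63%). The count of 7 was 2 without Splice del library 1 or A333fs library 2 or 3 and at most 9 without 1 library, and the pair fitted alone gave 10 below and 4 above. An F-test over the 4 lines found a difference at an adjusted p below 0.01 for 29 of the 38 genes (56.2% of all genes). The 9 that did not pass were CALR, PDIA4, DERL1, DERL2, DERL3, SEC61B, SEC61G, SEC23B and ERN1.

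Fold changes in these libraries followed the base composition of the transcripts, and the ER genes did so as well. The exons of the 38 genes had a median of 46.1% GC, and those of all genes tested 49.6%. Spearman's rho between exon GC content and log2 fold change was -0.58, -0.71 and -0.79 over the 38 genes in Splice del, C321fs and A333fs, and -0.51, -0.55 and -0.67 over the 14789 genes, which are not independent and share their libraries. The 17 genes under 45% GC had medians of 0.27, 0.23 and 0.32, and 17, 16 and 17 of them lay above 0. The 11 genes of 52% GC or more had medians of -0.06, -0.21 and -0.21. The 4912 tested genes under 45% GC had medians of 0.25, 0.26 and 0.29, and the 6299 of 52% or more -0.22, -0.22 and -0.35.

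**Figure D4:**
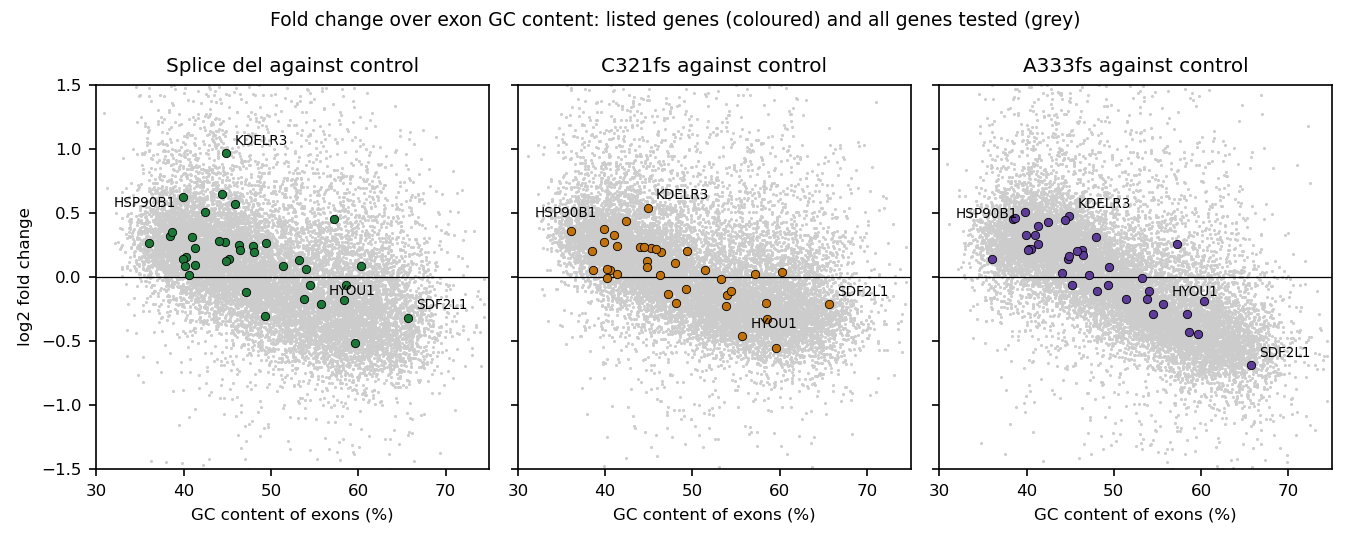
Log2 fold change against control over the GC content of the exons for the 38 genes (coloured) and all genes tested (grey, some beyond the vertical axis), with 1 panel per mutant line. The coloured points run from above 0 at low GC to below 0 at high GC, as the grey ones do, with Spearman's rho of -0.58, -0.71 and -0.79, and KDELR3, at 44.9% GC, is the highest coloured point in Splice del (0.96).

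A fit that removed each library's trend over GC content and exon length, set on genes outside the ER lists, gave a median log2 fold change of the 38 genes of 0.05 in Splice del and of -0.02 and -0.03 in C321fs and A333fs, beside -0.06, -0.05 and -0.05 over all genes. In Splice del, 7 of the 16 genes that rose also passed in that fit: KDELR3, EIF2AK3, DNAJC3, SEC24D, HSP90B1, HERPUD1 and ERN1. In C321fs they were KDELR3 and HSP90B1, and in A333fs DNAJC3 and PDIA6. In Splice del the other 9 that rose did not pass, namely DNAJB11, HSPA5, KDELR2, OSTC, PDIA3, PDIA6, SEL1L, SPCS3 and SSR1. In C321fs the other 7 were DNAJB11, DNAJC3, EDEM1, KDELR2, OSTC, SPCS3 and SSR1. In A333fs the other 13 were ATF6, CANX, DERL2, DNAJB11, DNAJB9, EIF2AK3, HSP90B1, KDELR3, OSTC, SEC61G, SEL1L, SSR1 and SSR3. Of those that fell, SEC61B stayed past the threshold in Splice del, HYOU1, SYVN1 and SEC61A1 in C321fs, and SDF2L1, MANF and KDELR1 in A333fs. SDF2L1 in Splice del, P4HB in C321fs, and P4HB, SEC61A1 and SYVN1 in A333fs did not pass. Other genes passed only in that fit. Upward these were CRELD2 at 0.27 (adjusted p = 3.68e-05), PDIA4 at 0.19 (adjusted p = 0.00148) and MANF at 0.16 (adjusted p = 0.00414) in Splice del, CRELD2 at 0.19 (adjusted p = 0.00149) in C321fs, and ERN1 at 0.50 (adjusted p = 0.00267) in A333fs. Downward, in Splice del they were SSR3 at -0.24 (adjusted p = 0.000891), SEC23B at -0.26 (adjusted p = 4.68e-05), ATF6 at -0.19 (adjusted p = 0.00733) and DERL2 at -0.30 (adjusted p = 0.00613). In C321fs they were SSR3 at -0.22 (adjusted p = 0.00206), SEC23B at -0.24 (adjusted p = 0.000209), CANX at -0.29 (adjusted p = 0.000348) and SEL1L at -0.21 (adjusted p = 0.00378). In A333fs they were EDEM1 at -0.28 (adjusted p = 0.000317) and KDELR2 at -0.24 (adjusted p = 0.000249). The cause of the trend was not tested.

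**Figure D5:**
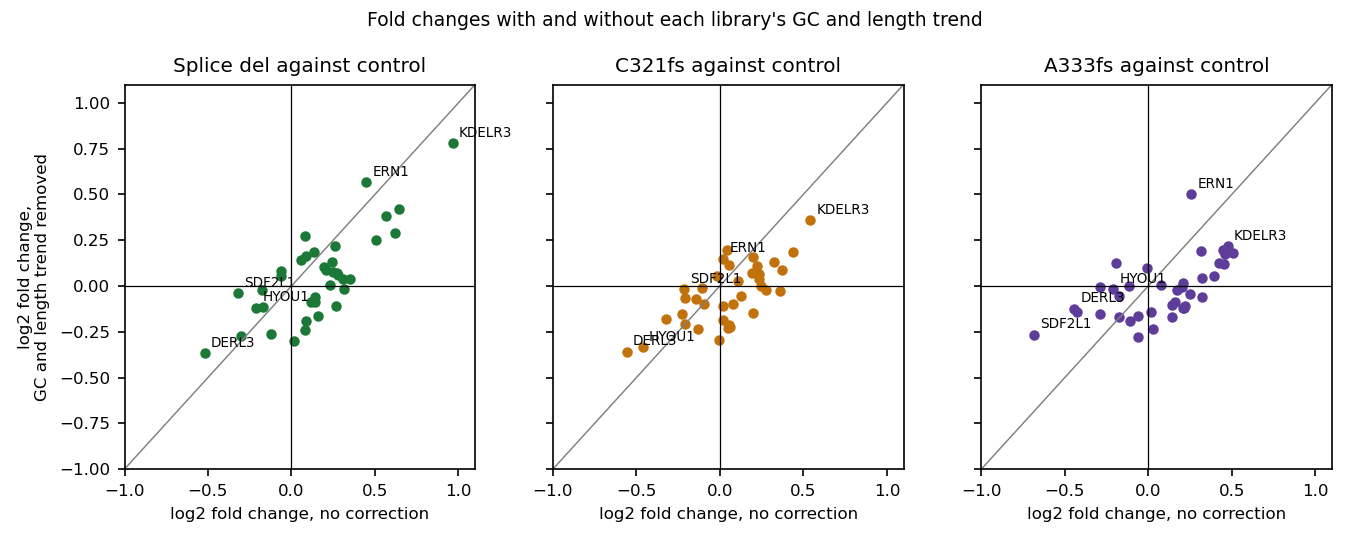
Log2 fold change of the 38 genes with the GC and length trend removed (vertical axis) against the value without correction (horizontal axis), with 1 panel per mutant line and a grey line of equal values. KDELR3 stays the highest in Splice del (0.78 against 0.96), SDF2L1 in A333fs moves from -0.69 to -0.27, and ERN1 lies above the line of equal values in all 3 panels.

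The 9 genes with any of the 3 promoter elements had median log2 fold changes of 0.16, 0.02 and 0.08 (Splice del, C321fs, A333fs), and the 24 tested genes with none had 0.14, 0.05 and 0.19. Among the 5 genes with the full ERSE, HSP90B1 rose in each line, HSPA5 rose in Splice del, CANX rose in A333fs, and CALR and CRELD2 did not pass in any line. With the GC and length trend removed, HSP90B1 passed in Splice del (0.25) and C321fs (0.19) but not in A333fs (0.12, adjusted p = 0.0482). The rises of HSPA5 in Splice del (0.08, adjusted p = 0.239) and CANX in A333fs (-0.12) were lost. CANX then fell in C321fs (-0.29), and CRELD2 rose in Splice del (0.27) and C321fs (0.19). Of the genes with ERSE-II, SDF2L1 fell in Splice del and A333fs, HYOU1 fell in C321fs and HERPUD1 rose in Splice del. In the fit without the trend the fall of SDF2L1 in Splice del was lost (-0.04, adjusted p = 0.486), and the others still passed the adjusted p.

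Levels can be compared between genes only per length. As RPKM, which divides CPM by the exon length in kilobases, P4HB (564 ± 36.5, SD, n = 3) and CALR (560.3 ± 44.9) were the most abundant of the 38 genes in control cells and did not differ beyond their spread. HSP90B1 (244 ± 11.5) and HSPA5 (180.2 ± 13.1) followed. KDELR2 (131 ± 5.52), CANX (127 ± 0.886) and KDELR1 (90.6 ± 8.44) lay in the upper part, KDELR3 at 4.45 ± 0.358 near the end. The sensors were scarce, with 7.47 ± 0.196 for ATF6, 3.37 ± 0.171 for EIF2AK3 and 1.20 ± 0.0857 for ERN1. DERL3 was last at 0.335 ± 0.0153, but its length in the file covers 2 loci and understates its level. The 4 called genes thus included SDF2L1 at 98.1 ± 6.64 RPKM and 3 genes between 3.37 and 6.79 RPKM. Counts of HSP90B1, PDIA3 and OSTC may have lost fragments that also map to their copies HSP90B2P, PDIA3P1 and OSTCP1.

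Of 104 other genes of ER folding, export and the response, listed from general knowledge, 103 were tested and 8 were called in at least 1 line against control. In Splice del 5 were called higher and 0 lower (6.21% and 4.53% of all genes). The counts were 5 and 1 in C321fs (4.63% and 2.26%) and 2 and 0 in A333fs (5.46% and 6.81%). The share of all genes called in at least 1 line was not counted. At an adjusted p below 0.01 with no fold limit, 30 rose and 21 fell in Splice del, 29 rose and 20 fell in C321fs, and 28 rose and 26 fell in A333fs, out of 103. These were 29.1% and 20.4% in Splice del (18.7% and 22.4% of all genes) and 28.2% and 19.4% in C321fs (16.1% and 20.7%). In A333fs they were 27.2% and 25.2% (21.0% and 26.4%). RNF139, a ubiquitin ligase of the ER membrane, stood at 63.4, 73.8 and 71.8 CPM (control), 126, 132 and 126 (Splice del), 112.8, 109 and 104 (C321fs) and 145, 145 and 143 (A333fs). Each mutant line lay above control without overlap. RNF139 was called higher in Splice del (log2 fold change 0.88 ± 0.06, adjusted p = 2.46e-08), C321fs (log2 fold change 0.64 ± 0.06, adjusted p = 1.63e-06) and A333fs (log2 fold change 1.05 ± 0.06, adjusted p = 2.52e-09). ERO1B, an oxidase that recharges disulfide isomerases, stood at 6.58, 7.15 and 7.43 CPM (control), 13.2, 11.9 and 11.6 (Splice del), 13.6, 14.3 and 15.6 (C321fs) and 8.20, 9.12 and 9.01 (A333fs). All mutant libraries lay above control, and A333fs lay below the other mutant lines. ERO1B was called higher in Splice del (log2 fold change 0.80 ± 0.09, adjusted p = 3.41e-06) and C321fs (log2 fold change 1.04 ± 0.09, adjusted p = 7.58e-07) and rose in A333fs without reaching the fold limit (log2 fold change 0.32 ± 0.09, adjusted p = 0.00738).

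DDIT3 (CHOP), the death-related factor downstream of EIF2AK3 and ATF4, stood at 19.9, 18.5 and 19.5 CPM (control), 25.4, 24.6 and 26.8 (Splice del), 20.3, 21.7 and 18.5 (C321fs) and 30.05, 29.0 and 28.2 (A333fs). Splice del and A333fs lay above control, and C321fs overlapped it. DDIT3 was called higher in A333fs (log2 fold change 0.59 ± 0.07, adjusted p = 4.03e-06), rose in Splice del (log2 fold change 0.41 ± 0.07, adjusted p = 0.000152) and was 0.06 ± 0.07 (adjusted p = 0.477) in C321fs. ATF4, its activator, stood at 332, 321.04 and 318 CPM (control), 259, 260.3 and 268 (Splice del), 336, 295 and 268 (C321fs) and 298, 273 and 277 (A333fs). The libraries of Splice del and A333fs lay below control and 1 of 3 C321fs libraries lay above it. ATF4 fell in Splice del (log2 fold change -0.30 ± 0.07, adjusted p = 0.00145) and was -0.11 ± 0.07 (adjusted p = 0.187) and -0.19 ± 0.07 (adjusted p = 0.0204) in C321fs and A333fs. XBP1, counted over spliced and unspliced forms, stood at 1968, 1994 and 1831 CPM (control), 1864, 1846 and 1900.3 (Splice del), 1759, 1767 and 1744 (C321fs) and 1654, 1599 and 1716 (A333fs). C321fs and A333fs lay below control, and Splice del overlapped it. XBP1 fell in A333fs (log2 fold change -0.22 ± 0.05, adjusted p = 0.00164) and was -0.05 ± 0.05 (adjusted p = 0.468) and -0.14 ± 0.05 (adjusted p = 0.0363) in Splice del and C321fs.

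Among the remaining called genes, WFS1, an ER membrane protein that restrains the response, stood at 92.8, 105 and 90.7 CPM (control), 65.4, 67.2 and 71.7 (Splice del), 59.0, 57.6 and 61.3 (C321fs) and 65.5, 63.9 and 74.1 (A333fs). All mutant libraries lay below control. WFS1 was called lower in C321fs (log2 fold change -0.70 ± 0.07, adjusted p = 3.10e-06) and fell in Splice del (-0.50) and A333fs (-0.50). The prolyl isomerases FKBP14 and FKBP7 were called higher in Splice del (0.60 and 0.91), and FKBP14 also in C321fs (0.63). The libraries of FKBP14 stood at 20.6, 22.7 and 25.0 CPM (control), 35.8, 36.4 and 31.2 (Splice del), 32.1, 34.7 and 38.7 (C321fs) and 29.4, 30.7 and 30.5 (A333fs), and those of FKBP7 at 1.32, 1.41 and 1.63 CPM (control), 3.12, 2.81 and 2.23 (Splice del), 1.92, 1.66 and 2.17 (C321fs) and 2.29, 1.79 and 1.73 (A333fs). For both genes the libraries of all mutant lines lay above control. NUCB2, a calcium-binding protein of the secretory route, stood at 44.0, 51.2 and 49.2 CPM (control), 86.3, 80.3 and 69.5 (Splice del), 68.9, 78.2 and 73.0 (C321fs) and 42.3, 72.7 and 39.4 (A333fs) and was called higher in Splice del (0.71) and C321fs (0.61), with A333fs 2 far from the other A333fs libraries. BHLHA15, a factor of secretory cells, was called higher in C321fs (0.86) at low levels, 0.679, 0.609 and 0.694 CPM (control), 1.11, 0.857 and 0.836 (Splice del), 1.40, 1.21 and 0.972 (C321fs) and 0.549, 0.925 and 0.763 (A333fs). With the GC and length trend removed, 3 of the other ER genes were still called. At the adjusted p alone, FKBP7 in Splice del, NUCB2 in C321fs, and ERO1B and WFS1 in A333fs no longer passed. The remaining rises and falls named for these other ER genes, ATF4 and XBP1 included, still passed it.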

How the data were processed

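Reads had been trimmed with Trimmomatic and mapped to hg38 by the authors, and featureCounts 1.6.4 then gave the fragments of each gene from proper pairs. Strand was ignored, and fragments with more than 1 location or gene were dropped, by the default of that tool. The aligner is named differently by the labels and the file header and is not settled. The deposited counts are whole numbers, not normalized, with replicates kept apart. ChIP-seq of the same series was not used here. Libraries held 27872208 to 36788024 counted fragments.

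Genes were kept with filterByExpr by line (14789 of 26485), scaled with TMM factors, and modelled with edgeR 4.0.16 under R 4.3.3 (glmQLFit, glmQLFTest) over all 12 libraries with 1 coefficient per line. P-values were Benjamini-Hochberg adjusted over all genes tested. The labels do not say whether replicate numbers pair the libraries. Residuals of libraries with the same number correlated by -0.0092 on average over 18 pairs, from -0.123 to 0.165. Such a mean cannot exclude a pairing of some libraries. The GC and length trend was removed by loess offsets (span 0.3). The other alternatives were RLE, upper-quartile and library-total scaling, no filter, each pair alone, a replicate block, DESeq2 1.42.0, other thresholds and 12 fits without 1 library. The fit was tested on simulated data first.

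Values in every library are given for each of the 38 genes called in a comparison, the 3 with the smallest adjusted p in each direction in each line, and HSPA5, HSP90B1, DNAJB9, HERPUD1, SDF2L1, ATF6, ERN1 and EIF2AK3, and of the other genes for the 8 called and XBP1, ATF4 and DDIT3. No measured value entered the rule that set the 39 genes, and the 104 others were listed from general knowledge. The genes, lists and tests were nevertheless chosen with earlier results of these data known.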

Additional observations from a re-analysis of the deposited data

Results flagged for a closer look

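Between mutant lines, 2 of the other ER genes were called. ERO1B, an oxidase of the ER lumen, was lower in A333fs than in C321fs (log2 fold change -0.72 ± 0.09, adjusted p = 1.20e-05), with 8.20, 9.12 and 9.01 CPM against 13.6, 14.3 and 15.6. SEC31B, a minor COPII subunit, was lower in A333fs than in Splice del (log2 fold change -0.84 ± 0.20, adjusted p = 0.00696), with 2.71, 3.54 and 1.82 CPM against 5.21, 3.99 and 5.19.

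For 8 of the 141 ER genes tested (5.67%), all libraries of a mutant line lay on one side of control and all libraries of another on the other side, as they did for 576 of the 14789 genes tested (3.89%). These genes were chosen for this pattern, so their values are a description, given with no test of the difference between the lines. For MANF, Splice del was above control (log2 fold change 0.088) and A333fs below (-0.17). Splice del was above and A333fs below control likewise for CREB3L2 (0.20 and -0.11) and TXNDC11 (0.19 and -0.15). C321fs was above and A333fs below it for PDIA5, a disulfide isomerase (0.25 and -0.25), QSOX1, a sulfhydryl oxidase (0.21 and -0.16), and UBE2G2, a conjugating enzyme of ER-associated degradation (0.19 and -0.11), and the reverse held for SEC61A2 (-0.10 and 0.19). For SEC31A, a COPII subunit, Splice del stood at 0.12 and C321fs at -0.20.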

How the results depend on the processing

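With the replicate block, 3, 0 and 0 genes were called higher and 0, 0 and 1 lower in Splice del, C321fs and A333fs, as without it, but P4HB in C321fs and SEC61A1 in A333fs no longer passed the adjusted p (0.0115 and 0.0148). The labels do not pair the libraries. No reversal came from RLE, upper-quartile or library-total scaling. With the GC and length trend removed, 9 values reversed: SPCS3 in Splice del (-0.11) and C321fs (-0.027), OSTC in C321fs (-0.0026), and in A333fs DNAJB11 (-0.023), CANX (-0.12), DERL2 (-0.11), SEC61G (-0.058), SSR3 (-0.12) and ATF6 (-0.042). In that fit 1 gene was called higher in Splice del, 0 lower in A333fs, 3 of the other ER genes were called, and the medians were 0.047, -0.023 and -0.032. Upper-quartile scaling gave 5, 1 and 2 genes called higher and 0 lower in A333fs, with medians of 0.24, 0.14 and 0.26. Library totals gave 6, 2 and 5 higher and 0 lower in A333fs, medians of 0.34, 0.22 and 0.30, and 19 other ER genes. Over all 14789 genes, 1588, 1018 and 1815 were called in either direction in the main fit. These counts were 1032, 657 and 801 with the trend removed, 1669, 1187 and 1804 with upper-quartile scaling and 2196, 1628 and 1924 with library totals. The median in C321fs was 0.041 under RLE and 0.038 under DESeq2, and that in A333fs 0.18 without the filter and 0.17 on its pair alone. With no minimum fold, 16, 9 and 15 were higher and 2, 4 and 6 lower, 6, 7 and 7 differed between mutant lines (Splice del against C321fs, A333fs against C321fs, A333fs against Splice del), and 73 other ER genes passed. Without 1 library, 2 to 4, 0 to 1 and 0 to 0 genes were called higher and 0 to 1, 0 to 0 and 1 to 1 lower, with medians of 0.14 to 0.17, 0.043 to 0.082 and 0.14 to 0.20. Between mutant lines 0 to 0 were called in each comparison, 21 to 32 genes differed among the lines, and 7 to 11 other ER genes were called. DNAJC3 lost its call without control library 1 (0.58) and EIF2AK3 without Splice del library 2 (0.57), where DERL3 was called lower (-0.71). SEC24D gained one without control library 3 (0.61). Past the adjusted p alone, OSTC and SPCS3 in Splice del were lost in 4 of 12 such fits each, and SEC61B in Splice del and EDEM1 in C321fs in 3 each. The cause of these changes was not tested. Genes near 2 CPM, such as DERL3, have standard errors up to 0.20, so that changes under the fold limit were not detectable there at this depth.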
